A study of Arabidopsis thaliana with 4 samples.

Results

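Seedlings of Arabidopsis thaliana grown at 16 °C were compared after 24 h of light rich in far-red (low R:FR) and without that treatment (high R:FR), with 1 array for each light condition. R:FR is the ratio of red to far-red light, and low R:FR is how plants perceive leaves of neighbours. Both arrays of 16 °C were used, of 4 arrays in the series, and the other 2 held the same light contrast at 22 °C. Every plant was of the accession La-er and mutant for PHYA, which encodes phytochrome A, the receptor specialised for far-red light, so no group had the wild-type receptor. The labels give the allele as phyA-2, except that of the low R:FR array at 16 °C, which gives phyA with the same citation. All plants were raised on soil in white light of 100 µmol m-2 s-1 with an R:FR of 4.4. The high R:FR group stayed there for 5 days, and the low R:FR group was moved after 4 days to an R:FR of 0.1 for the last 24 h. The same schedule was used at 22 °C. RNA came from cotyledons, the seed leaves, with a little hypocotyl, the stem below them, and the number of plants behind each array is not given. PHYA had no named probe set here, so its transcript was not analysed.

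Phytochromes are photoreceptors that red light activates and far-red light returns to their inactive form. In low R:FR the inactive form of phytochrome B accumulates, PIF transcription factors are released from its control, and genes of auxin synthesis, auxin response and wall extension are switched on, which is known as shade avoidance. In cool conditions, low R:FR is also known to raise the CBF transcription factors, whose targets, the COR genes, encode proteins that protect membranes and other proteins during freezing. Shade signals are further known to restrain defence pathways driven by jasmonate and salicylate.

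The probe sets of the comparison were taken as follows. Of 22810 probe sets, 64 were controls, and 13643 of the other 22746 counted as measured, which means a mean log2 signal over the 4 arrays at or above that of a signal of 23.2, after signals below 14.5 had been set to 14.5. The 104 measured probe sets in the identifier range of the organelle genomes are described apart. The remaining 13539 are called nuclear, and 7237 of them had 1 gene and 1093 a gene with a name. A change is the log2 of the low R:FR signal minus the log2 of the high R:FR signal, and a probe set counts as higher or lower when the signals differ at least 2-fold. With 1 array a group this is a rule of size without a replicate check or a p-value. Where 1 signal lay below 14.5, the fold is a bound and is given as "at least". In bulk tissue, fewer cells of a type and less RNA per cell cannot be told apart.

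The arrays were alike as a whole. Their trimmed means were all about 100.01, their medians lay between 36.0 and 40.6, and Pearson's r of log2 signals between pairs of arrays ran from 0.930 to 0.976, with 0.957 between both arrays of 16 °C. The small number of arrays limits the precision. The error of hybridization and scanning alone can be read from 18 probe sets of spiked transcripts, which differed between the arrays of 16 °C with an SD of 0.21 on the log2 scale and by at most 0.44. In 6 of 6 control transcripts with probe sets near both ends, the 3′ to 5′ log2 ratio was smaller on the array of low R:FR at 16 °C (mean 0.54) than on its high R:FR partner (mean 0.82), while the means at 22 °C were 0.64 in low and 0.73 in high R:FR. This ratio is a sign of RNA quality and labelling, and its part in the results was not tested. Of 10 markers of the mesophyll, the green tissue of cotyledons, 3 were measured, and their summed signal lay between 8811 and 9764 on the 4 arrays. No named probe set of the 10 shoot apex or 16 seed markers was measured. PYK10, a glucosidase of endoplasmic reticulum bodies listed here as a root marker, was bright. The labels name no root, and the tissue behind this signal was not tested. PYK10 read 2024 in high and 1083 in low R:FR at 16 °C and 2913 and 2835 at 22 °C. The other root marker with a named probe set, EXPA7, was not measured, with signals of 13.8 and 5.0 at 16 °C and 15.8 and 14.8 at 22 °C.

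Low R:FR at 16 °C came with signals at least 2-fold higher for 224 nuclear probe sets (1.65%) and at least 2-fold lower for 394 (2.91%). A further 84.8% of all nuclear probe sets lay within 1.5-fold, and the median log2 change was 0.01. At least 4-fold changes were found for 24 probe sets with higher and 44 with lower signals in low R:FR. The members nearest the limit on the higher side had folds of 2.00 inside it and 1.996 outside it. Calls were most frequent among dim probe sets: the dimmest 3385 held 121 of the higher and 194 of the lower ones, the brightest 3385 held 18 and 47. In 39 of the higher probe sets the high R:FR signal lay below 14.5, and in 83 of the lower ones the low R:FR signal did.

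**Figure D1:**
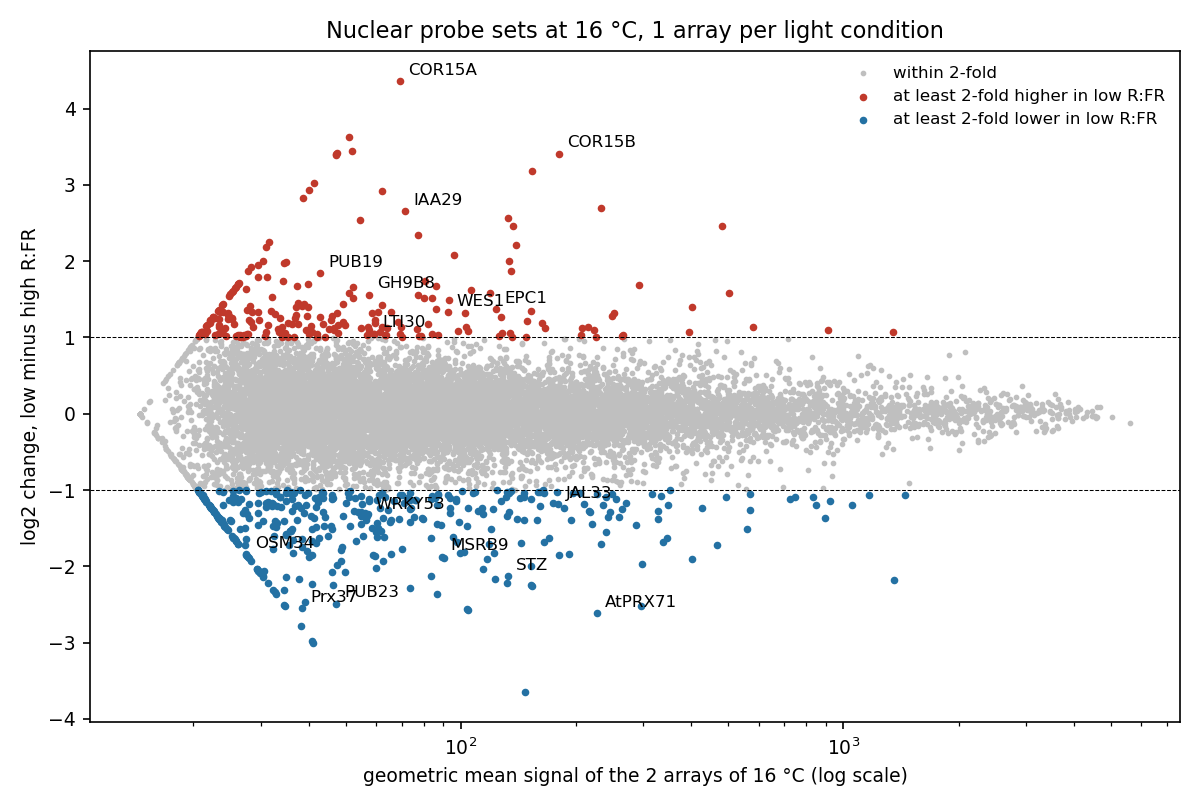
Log2 change in low R:FR at 16 °C (low minus high R:FR) against the geometric mean signal of both arrays on a log axis, 1 point per nuclear probe set, with dashed lines at 2-fold. The 224 higher and 394 lower probe sets are most frequent among dim signals, and the slanted edges at the left are set by the floor of 14.5.

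Among genes with a name, 16 of 1093 probe sets were higher (1.46%) and 33 lower (3.02%), shares close to those of all nuclear probe sets. The freezing protection genes COR15A and COR15B, the auxin response genes IAA29, WES1 and GH3.3 and several wall genes led the higher side. Class III peroxidases, U-box ubiquitin ligases, a defensin, a zinc finger repressor and enzymes of secondary metabolism led the lower side.

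**Figure D2:**
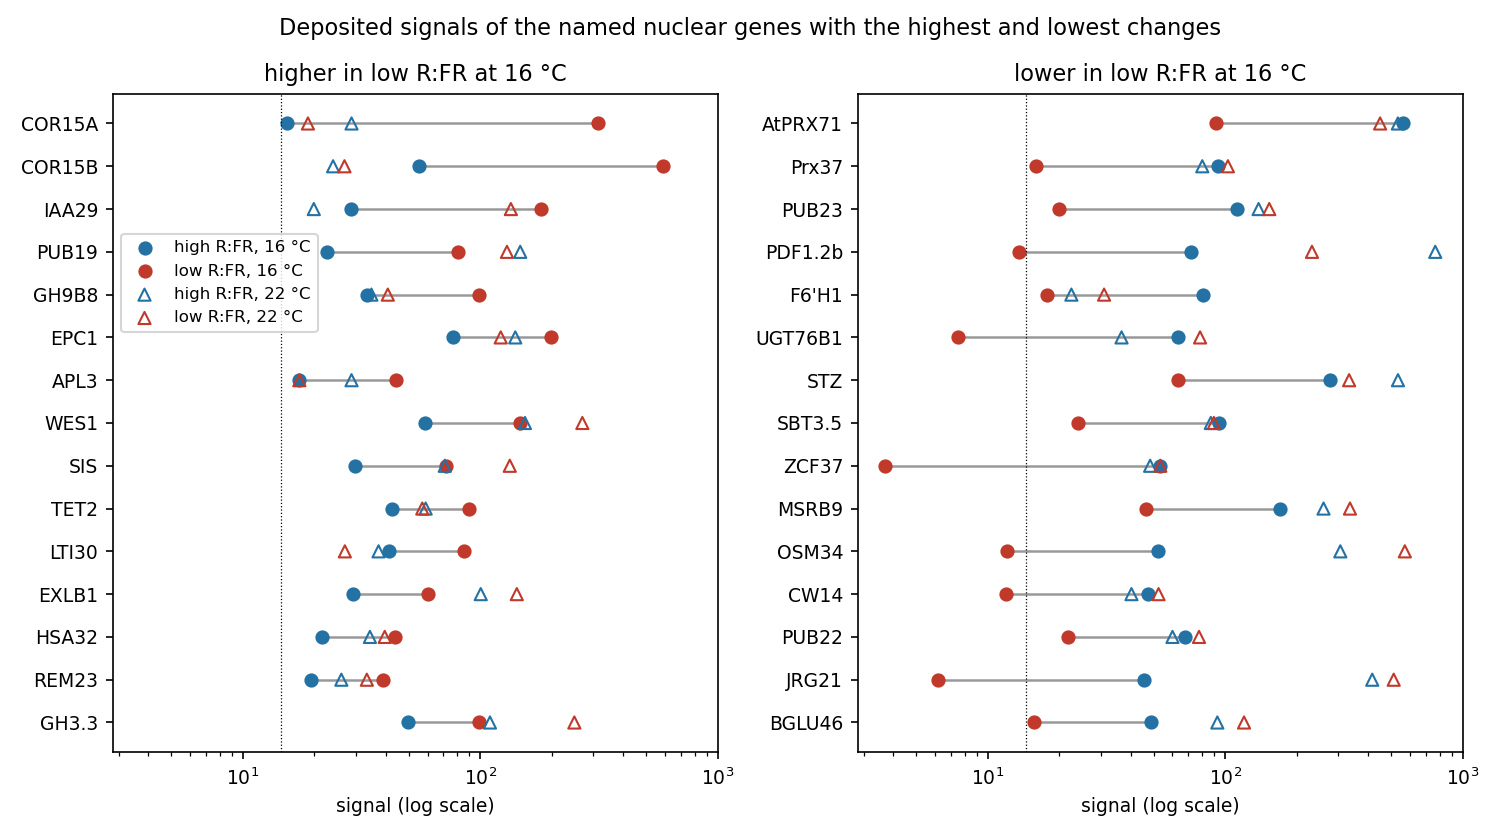
Deposited signals (log axis) of the 15 named nuclear genes with the highest changes (left) and the 15 with the lowest (right) among those with a signal of at least 37.8 on an array of 16 °C, with filled circles for 16 °C, open triangles for 22 °C, blue for high and red for low R:FR, and a dotted line at the floor of 14.5. COR15A and COR15B stand out on 1 array alone, that of low R:FR at 16 °C, and most genes on the right read lowest on that array.

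The cold-regulated genes gave the highest changes. COR15A, which encodes a chloroplast protein that protects membranes during freezing, read 15.3 in high and 314.1 in low R:FR at 16 °C, against 28.7 and 18.8 at 22 °C. Its 3 other arrays were near the floor and the low R:FR array of 16 °C stood above them all. The log2 change at 16 °C was 4.36, a ratio of 20.5, which became 3.05 on the log2 scale with the floor raised to the median of all signals, 37.8. COR15B, the neighbouring and similar gene, read 55.2 and 587.6 at 16 °C and 24.0 and 26.8 at 22 °C. Its log2 change of 3.41 (10.6-fold) was the same with the raised floor. Cross-hybridization between the probe sets of these similar genes was not tested. LTI30, a dehydrin gene, read 41.2 and 85.4 at 16 °C and 37.3 and 26.9 at 22 °C. It was 2.07-fold higher at 16 °C, at log2 1.05, but 0.84 where a pseudocount replaced the floor. COR47, another dehydrin gene, went from 349.0 to 615.8 (log2 0.82) and COR27 from 76.5 to 95.9 (log2 0.33), neither 2-fold. In all, 5 of 22 listed cold-regulated genes were measured, 3 of them higher and 0 lower, with a median log2 change of 1.05, against 0.11 for the same genes at 22 °C. This list was chosen with the behaviour of its leading genes in these arrays known, so its count is not independent evidence of a direction. Higher signals were found for 1.65% of all nuclear probe sets and lower ones for 2.91%. STZ, a zinc finger repressor known to bind near cold- and stress-regulated genes, was the measured member of 16 listed regulators upstream of the CBF genes, and it was lower, as given with the stress genes.

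The measured auxin response genes read higher in low R:FR at both temperatures. IAA29, a repressor of auxin signalling that is itself switched on by auxin and by shade, read 28.5 in high and 180.0 in low R:FR at 16 °C and 19.9 and 134.6 at 22 °C. Both low R:FR arrays stood above both high R:FR arrays, with log2 changes of 2.66 at 16 °C and 2.76 at 22 °C. WES1 (GH3.5), an enzyme that joins auxin to amino acids, went from 58.3 to 146.9 at 16 °C (log2 1.33) and from 154.3 to 269.3 at 22 °C (log2 0.80). GH3.3, an enzyme of the same family, read 49.5 and 99.2 at 16 °C and 109.9 and 249.2 at 22 °C. Its log2 change at 16 °C, 1.003, lay at the limit, and it missed 2-fold with quantile normalization (0.98) and with the pseudocount (0.83). For both GH3 genes the low R:FR signal at 16 °C was below the high R:FR signal at 22 °C. These were the 3 measured genes of 25 listed, so 3 of 3 were higher, in a list not independent of earlier results on these arrays. Of all nuclear probe sets 1.65% were higher. The listed genes IAA20, IAA30, GH3.1 and LBD29 had named probe sets too, but their signals lay below 14.5 on every array. YUC2, an auxin synthesis enzyme and the measured member of 17 genes of auxin synthesis and transport, stood at log2 0.18.

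Transcription factors of shade avoidance were hardly covered by the gene names. Of 26 listed, 25 were matched by symbol and 2 had a named probe set, and both of these were measured. The signals of the others were not examined. BIM1, a helix-loop-helix factor of brassinosteroid signalling, read 58.9 and 106.9 at 16 °C and 73.9 and 125.6 at 22 °C. HAT2, a homeodomain factor of the auxin and shade responses, read 72.2 and 105.7 at 16 °C and 85.2 and 128.2 at 22 °C. Both read higher in low R:FR at each temperature without reaching 2-fold (log2 0.86 and 0.55 at 16 °C). HYH, a bZIP factor of light signalling related to HY5, stood at log2 -0.26.

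Genes of wall loosening mostly read a little higher in low R:FR at 16 °C. Expansins loosen the contacts between wall polymers, and XTH enzymes cut and rejoin xyloglucan. Of 28 listed genes of these families 12 were measured, and 11 of them lay above 0, with a median log2 change of 0.46. Of all nuclear probe sets 50.7% lay above 0, with a median of 0.01. EXLB1, an expansin-like gene, passed 2-fold, from 29.2 to 60.4 (log2 1.05), and EXPB1, a beta-expansin gene, lay just outside it, from 26.1 to 52.1 (log2 0.997). Under scaling to the same median or quantile normalization 2 of the 12 passed, and with the raised floor or the pseudocount 0 did. EXPA8 read 313.5 and 525.6 at 16 °C and 386.3 and 528.8 at 22 °C, the brightest of the alpha-expansins measured, with log2 0.75 at 16 °C. XTH18 stood at log2 0.51 and XTH19 at 0.41, nearest to the median of the list. EXLA2 was the member below 0, at -0.33. At 22 °C the same 12 genes had a median of 0.34, with 1 higher. Outside the list, XTH32 and EXGT-A3, an XTH family enzyme given below, lay below 0 at 16 °C, at log2 -0.185 and -1.05. The expansin family genes EXPA16, EXPA9 and EXLA3, also outside it, lay above 0, at 0.30, 0.45 and 0.65.

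GH9B8, a glycosyl hydrolase of the family that cuts cellulose-like chains, read 33.4 and 98.7 at 16 °C and 34.8 and 40.8 at 22 °C. It stood apart in low R:FR at 16 °C, 2.96-fold higher, at log2 1.56. All 5 measured genes with a GH9 symbol lay above 0, at log2 0.29 to 1.56. GH9C2, for example, went from 311.4 to 549.6 (log2 0.82). COB, the GPI-anchored COBRA protein that orients cellulose deposition, read 560.7 and 822.0 (log2 0.55). EPC1, a glycosyltransferase needed for cell adhesion, read 76.8 and 199.3 at 16 °C and 140.5 and 122.0 at 22 °C. Its log2 change at 16 °C was 1.38, and the high R:FR array of 16 °C was the lowest of the 4. Other wall genes were lower: EXGT-A3, an XTH family enzyme, went from 356.9 to 172.1 (log2 -1.05) and ATPMEPCRB, a pectin methylesterase, from 230.0 to 112.6 (log2 -1.03). Neither passed 2-fold with the pseudocount, and ATPMEPCRB missed it with quantile normalization too. The families by symbol, 25 in number, and the named genes beyond the 15 highest and 15 lowest were picked after their values were known.

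The other named genes on the higher side had varied roles. PUB19, a U-box ubiquitin ligase of drought and abscisic acid responses, read 22.6 and 80.9 at 16 °C and 147.4 and 129.6 at 22 °C. Its high R:FR array at 16 °C stood low against the other 3, and its log2 change was 1.84 (1.1 with the raised floor). SIS, a protein of salt tolerance, went from 29.6 to 71.9 (log2 1.28), and TET2, a tetraspanin membrane protein, from 42.4 to 89.4 (log2 1.08). APL3, a subunit of the enzyme that makes ADP-glucose for starch, was dim, with 17.2 and 44.3 at 16 °C and 28.7 and 17.3 at 22 °C. HSA32, a protein of heat acclimation, read 21.6 and 43.9, REM23, a B3 domain factor, 19.3 and 39.1, and the calmodulin N-methyltransferase gene 16.4 and 35.8. With the raised floor SIS, APL3, HSA32, REM23 and the methyltransferase gene no longer reached 2-fold, at log2 0.93, 0.23, 0.22, 0.05 and 0.00. These 5 also missed it with the pseudocount, at 0.97, 0.89, 0.69, 0.67 and 0.70, as did TET2, at 0.87.

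On the lower side were most of the measured rapid stress and touch response genes. PUB22, PUB23 and PUB24 encode related U-box ligases known to dampen immune responses. PUB23 read 111.7 in high and 19.9 in low R:FR at 16 °C and 138.3 and 153.4 at 22 °C. PUB22 read 68.0 and 21.7 at 16 °C and 60.0 and 77.6 at 22 °C. In both, the low R:FR array of 16 °C was the lowest, with log2 changes of -2.49 and -1.65 at 16 °C and 0.15 and 0.37 at 22 °C. STZ (ZAT10) read 277.7 and 63.5 at 16 °C and 534.5 and 332.8 at 22 °C, lower in low R:FR at both temperatures, at log2 -2.13 and -0.68. WRKY53, a factor of senescence and defence, read 90.4 and 35.8 at 16 °C and 112.0 and 106.9 at 22 °C (log2 -1.34 at 16 °C). WRKY6, a factor of senescence and phosphate responses, went from 60.2 to 20.2 (log2 -1.58). Of 48 listed genes 9 were measured, 5 of them lower and 1, PUB19, higher, with a median of -1.34 against 0.10 at 22 °C. With the raised floor 3 were 2-fold lower, and the median was -0.67, with PUB22 at -0.85 and WRKY6 at -0.67. Several of these genes were already known to be low on this array when the list was drawn up, so the count is not independent evidence. Among all nuclear probe sets 2.91% were lower and 1.65% higher.

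Class III peroxidases, secreted enzymes that use hydrogen peroxide to stiffen walls or to make oxygen radicals, were among the genes with the lowest changes. AtPRX71 read 561.7 in high and 91.5 in low R:FR at 16 °C and 534.0 and 449.5 at 22 °C. Prx37 read 93.2 and 15.9 at 16 °C and 80.1 and 102.7 at 22 °C. PRX52, known from lignin formation, read 61.1 and 28.4 at 16 °C and 132.6 and 167.1 at 22 °C. In all 3 the low R:FR array of 16 °C was the lowest of the 4 arrays, with log2 changes of -2.62, -2.55 and -1.11. PRXR1, the brightest measured member, went from 1874.9 to 1674.0 (log2 -0.16, against a local SD of 0.15, the spread of log2 changes among probe sets of like signal). Of the 19 listed peroxidases 6 were matched by symbol, and the rest were not looked up, so most of the list was not examined. Of these 6, 4 were measured, 3 of them lower, with a median of -1.83 at 16 °C and 0.17 at 22 °C. The median was -0.997 with the raised floor, where PRX52 no longer passed (log2 -0.69), and -1.32 with the pseudocount, where PRX52 was at -0.82. This list too was drawn up with the low values of its members known. The share of all nuclear probe sets that were lower was 2.91%. AtPRX25, a measured peroxidase gene not among these 4, read 21.7 and 6.2 at 16 °C. Its low R:FR signal lay below 14.5, so its log2 change of -0.58 is a bound, and it did not count as lower.

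Of the measured genes of defence proteins, 3 were lower, from dim signals at 16 °C. PDF1.2b, a defensin gene of the jasmonate and ethylene pathways, read 71.8 and 13.5 at 16 °C and 767.4 and 232.1 at 22 °C. It was at least 4.95-fold lower at 16 °C and 3.31-fold lower at 22 °C, on a probe set whose identifier marks probes shared with similar genes. Its relative PDF1.2 read 24.4 and 12.6 at 16 °C and 163.8 and 59.2 at 22 °C. OSM34, an osmotin-like protein, read 52.2 and 12.1 at 16 °C and 305.6 and 571.3 at 22 °C, so it was at least 3.60-fold lower at 16 °C and 1.87-fold higher at 22 °C. UGT76B1, a glucosyltransferase that acts on salicylate and related defence signals, read 63.5 and 7.5 at 16 °C and 36.6 and 78.4 at 22 °C. It was at least 4.38-fold lower at 16 °C and 2.14-fold higher at 22 °C. THI2.2, a thionin gene, went the other way, from 104.7 to 199.5 (log2 0.93). Of 29 listed defence genes 6 were measured, 3 of them lower and 0 higher, with a median of -1.33 at 16 °C and 0.19 at 22 °C. With the raised floor 0 passed and the median was -0.61, and this list was also not independent of earlier results. For comparison, 2.91% of all nuclear probe sets were lower and 1.65% higher. JRG21, a dioxygenase of the jasmonate response and the measured member of 27 jasmonate genes, read 45.4 and 6.2 at 16 °C and 416.4 and 512.8 at 22 °C. Its signals at 16 °C were far below those at 22 °C in either light, and its reading in low R:FR was at least 3.13-fold lower at 16 °C, though at log2 -0.26 with the raised floor.

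Further named genes on the lower side belonged to secondary metabolism, redox and protein turnover. F6'H1, the hydroxylase that opens the path to the coumarin scopoletin, read 80.3 and 17.8 at 16 °C and 22.5 and 30.9 at 22 °C. Here the high R:FR array of 16 °C stood above the other 3, and the log2 change was -2.17 (-1.09 with the raised floor). MSRB9, a methionine sulfoxide reductase, read 170.6 and 46.5 at 16 °C and 259.7 and 335.6 at 22 °C (log2 -1.88 at 16 °C). SBT3.5, a subtilisin-like protease, went from 94.2 to 23.9 (log2 -1.98) and BGLU46, a glucosidase of lignin precursors, from 48.6 to 15.6 (log2 -1.64). GRX480 (ROXY19), a glutaredoxin that binds TGA factors, went from 87.0 to 34.5 (log2 -1.33). ZCF37, from 53.4 to 3.7, and CW14, from 47.4 to 11.9, were at least 3.68-fold and 3.27-fold lower. With the raised floor BGLU46, ZCF37 and CW14 stood at log2 -0.36, -0.50 and -0.33.

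The genes with a JAL symbol encode lectins of the jacalin family, which bind sugars and occur with myrosinases and glucosidases. Those measured read lower in low R:FR at 16 °C from bright signals, 2 of 3 by at least 2-fold. Jacalin genes without a JAL symbol here were not counted. JAL33 read 270.6 and 118.7 at 16 °C and 488.9 and 444.5 at 22 °C. JAL22 read 260.5 and 116.0 at 16 °C and 716.3 and 530.2 at 22 °C. JAL34 read 511.1 and 285.5 at 16 °C and 1058 and 975.5 at 22 °C. All 3 had their lowest signal in low R:FR at 16 °C, at log2 -1.19, -1.17 and -0.84. YLS5 read 285.5 and 121.5 at 16 °C and 291.6 and 341.6 at 22 °C (log2 -1.23 at 16 °C). The probe set of the wax synthesis repressor Decrease Wax Biosynthesis went from 112.6 to 51.4 (log2 -1.13) and that of NANA, a chloroplast aspartic protease, from 137.7 to 64.0 (log2 -1.11). Both missed 2-fold with the pseudocount, at -0.95 and -0.96.

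UDP-glycosyltransferases attach sugars to hormones and phenolic compounds. Of 22 measured genes with a UGT symbol 16 lay below 0, 3 were lower and 0 higher, with a median of -0.28. Family members without such a symbol here were not counted. Of all nuclear probe sets 48.9% lay below 0, 2.91% were lower and 1.65% higher, and the median was 0.01. UGT72E1, an enzyme of lignin precursors, went from 105.8 to 49.3 (log2 -1.10) and UGT87A2, known from flowering time, from 142.7 to 71.0 (log2 -1.01), and neither passed 2-fold with the pseudocount, nor UGT87A2 with quantile normalization. Of the 24 genes of the flavonoid list 23 were matched by symbol. Of these, 4 were measured, 0 of them 2-fold higher or lower, with a median of -0.46. The gene that was not matched was not looked up. UF3GT, an anthocyanin glycosyltransferase, read 45.9 and 28.1 at 16 °C and 96.9 and 38.6 at 22 °C. DFR, the reductase that leads to anthocyanins, read 122.4 and 78.9 at 16 °C and 209.3 and 113.5 at 22 °C. Both read lower in low R:FR at each temperature, at log2 -0.71 and -0.63 at 16 °C, while UGT78D1, a flavonol glycosyltransferase, stood at -0.02. The cytochrome P450 genes CYP71B23, from 72.9 to 26.3, and CYP71B29, from 31.5 to 7.7, were lower, but not with the raised floor (log2 -0.95 and 0.00). The other measured CYP71B genes, CYP71B5, CYP71B6, CYP71B26, CYP71B28 and CYP71B34, stood at log2 -0.68, -0.12, 0.01, 0.21 and 0.28.

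The gibberellin list had 4 measured genes of 23, and none passed 2-fold at 16 °C. The receptor genes GID1A, GID1B and GID1C stood at log2 -0.33, -0.53 and -0.67, and SLY1, the F-box protein that removes DELLA repressors, went from 78.0 to 44.0 (log2 -0.83). The median of -0.60 was -0.16 with the raised floor. At 22 °C GID1A read 53.4 and 118.1 and GID1B 36.8 and 54.4, higher in low R:FR, against 83.4 and 66.4 and 36.8 and 25.5 at 16 °C. GID1C read lower in low R:FR at both temperatures, from 35.2 to 22.2 at 16 °C and from 35.2 to 16.5 at 22 °C, where it passed 2-fold (log2 -1.09). The difference between temperatures was not tested.

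Photosynthesis and carbon metabolism genes of the nucleus stayed close to 0. The 6 measured genes of photosystems and electron transport, of 32 listed, had log2 changes between -0.09 and 0.06. PSAN, a photosystem I subunit, read 2450.7 and 2395.3 (log2 -0.03) and PSAE-1, another, 3957.3 and 3848.5 (log2 -0.04). The 4 chlorophyll synthesis genes of 23 had a median of -0.08, with PORB, a protochlorophyllide reductase, at -0.12 and CHLI2, a subunit of magnesium chelatase, at -0.04. The 4 genes of the Calvin cycle and photorespiration of 26 had a median of 0.14, with SBPASE at 0.15 and HPR, hydroxypyruvate reductase, at 0.12. None of these 14 genes passed 2-fold. Of the light-harvesting list 3 of 22 genes were measured, all LHCB4 isoforms of the minor antenna protein CP29. LHCB4.2 read 1133.5 and 813.9 at 16 °C and 1505.5 and 1164.0 at 22 °C, and LHCB4.3 read 385.6 and 285.7 at 16 °C and 308.4 and 363.0 at 22 °C. These 2 stood at log2 -0.48 and -0.43 at 16 °C, beyond the local SD of 0.19 and 0.24 but far from 2-fold, and LHCB4.1 stood at -0.04. Of 6 measured sugar and starch genes of 32, 1, APL3, was higher, and the median was 0.02, with ATSPS4F, a sucrose phosphate synthase, at -0.10 and F2KP, which sets fructose 2,6-bisphosphate, at 0.15.

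Lists with 1 or 2 measured genes gave no 2-fold change beyond those named. The clock gene GI stood at log2 0.21, the ethylene genes EIN3 and RTE1 at 0.20 and 0.52, the cytokinin response regulators RR16 and ARR15 at 0.07 and 0.36, and the histone gene HTB1 and the mitotic kinase gene AUR1 at -0.03 and 0.15. HCT, an enzyme of lignin synthesis, stood at -0.26, SIR, sulphite reductase, at -0.27, and the ascorbate peroxidases SAPX and TAPX at -0.12 and -0.03. The glucosinolate genes UGT74B1 and BCAT4 stood at -0.03 and 0.28. ICL, isocitrate lyase of the glyoxylate cycle, was below 14.5 on both arrays of 16 °C and read 20.5 and 131.8 at 22 °C, and SDP1, a lipase of seed oil, stood at -0.29 at 16 °C. The reference genes PEX4, a ubiquitin-conjugating enzyme, and GAPC2 stood at 0.04 and 0.15. None of the 18 listed brassinosteroid genes, 24 abscisic acid and drought genes or 22 lipid genes had a measured probe set with a name.

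**Figure D3:**
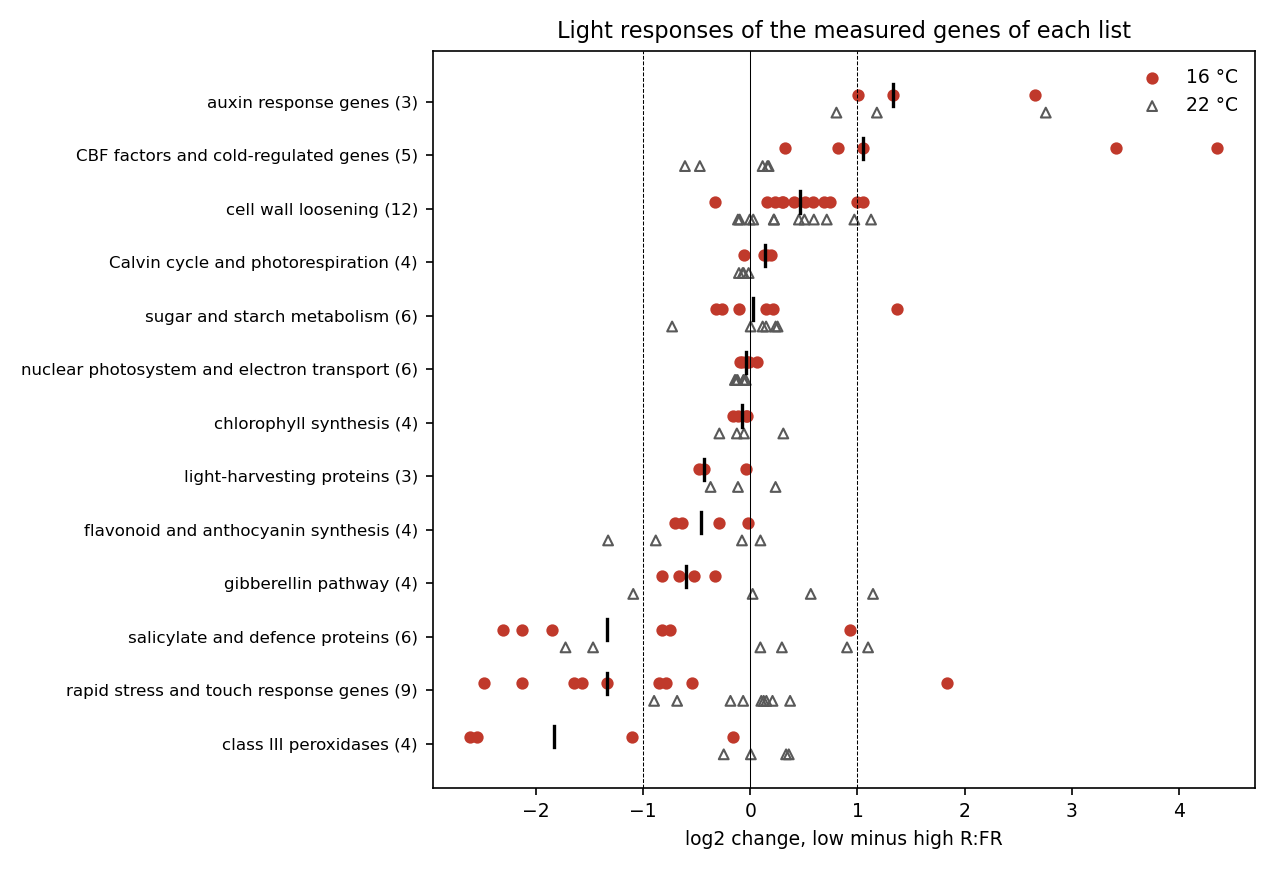
Log2 changes in low R:FR of the measured genes of the 13 lists with at least 3 of them (number in brackets), with red circles for 16 °C, grey triangles for 22 °C, a black bar for the median at 16 °C and dashed lines at 2-fold. Auxin response genes lie above 0 at both temperatures, some cold-regulated, rapid stress and peroxidase genes pass 2-fold at 16 °C and none at 22 °C, and the defence genes spread past 2-fold at both.

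Most probe sets past 2-fold had no gene name here, and a few with a locus are given, picked after their values were seen. AT4G12500 read 521.4 and 41.6 at 16 °C and 166.5 and 145.0 at 22 °C, the lowest change of a nuclear probe set with 1 gene, at log2 -3.65. AT3G22060 read 254.7 and 42.7 at 16 °C and 235.9 and 296.5 at 22 °C. AT5G15780 read 58.3 and 322.2 at 16 °C and 233.1 and 181.9 at 22 °C. In the first, the high R:FR array of 16 °C was the highest and the low R:FR array the lowest, in the second the low R:FR array stood alone as low, and in the third the high R:FR array of 16 °C stood alone as low. Genes next to each other on a chromosome gave 2140 pairs with both members measured. In 1 pair, COR15B and COR15A, both were higher, in 6 pairs both were lower, and in 0 pairs did members go opposite ways by 2-fold. YLS5 and its neighbour AT2G38870 were such a pair, the latter with signals of 306.1 and 76.4 at 16 °C and 721.0 and 799.4 at 22 °C. At least 1 member was lower in 108 pairs and higher in 70. Whether neighbours were similar enough in sequence for their probe sets to cross-hybridize was not tested.

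The probe sets past 2-fold at 16 °C were next set beside the same light contrast at 22 °C. There, 116 nuclear probe sets were higher in low R:FR (0.857%) and 69 lower (0.51%), and the comparison shares no array with that of 16 °C. Of the 394 probe sets lower at 16 °C, 8 were lower and 5 were higher at 22 °C, and their median log2 change there was 0.02, against 0.01 for all nuclear probe sets. In 373 of the 394 the low R:FR array of 16 °C was the lowest of the 4 arrays, against 29.5% of all nuclear probe sets. Its high R:FR partner was the highest in 152, against 2918 of all 13539 nuclear probe sets. The 2-fold rule by itself favours both counts. In 258 the low R:FR array of 16 °C was at least 2-fold below each of the other 3 (1.91% of nuclear probe sets). The high R:FR array of 16 °C was 2-fold below each of the others in 56 probe sets (0.414%), the high R:FR array of 22 °C in 9 (0.0665%) and the low R:FR array of 22 °C in 18 (0.133%).

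Of the 224 probe sets higher at 16 °C, 36 were higher and 4 lower at 22 °C, the median log2 change there was 0.34, and 73.2% lay above 0, against 51.5% of all nuclear probe sets. The high R:FR array of 16 °C was the lowest of the 4 arrays in 189 of them, against 27.6% of all nuclear probe sets, and the low R:FR array of 16 °C the highest in 138, against 26.0%. Here too the rule by itself favours both counts. At least 2-fold changes in the same direction at both temperatures were found for 12 higher and 4 lower probe sets with 1 gene. AT5G02540 read 64.7 and 300.2 at 16 °C and 77.4 and 301.7 at 22 °C, and AT5G62360 read 147.3 and 47.6 at 16 °C and 183.4 and 58.3 at 22 °C. Their light changes were of like size at both temperatures, at log2 2.21 and 1.96 for the former and -1.63 and -1.65 for the latter. IAA29, GH3.3 and PDF1.2b were the named genes among the 16. In 9 nuclear probe sets the changes reached 2-fold in opposite directions, and across all nuclear probe sets the log2 changes of both temperatures had a Pearson r of 0.147 and a Spearman rho of 0.097, a description over probe sets that are not independent. No difference between the temperatures was tested, since each condition had 1 array.

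**Figure D4:**
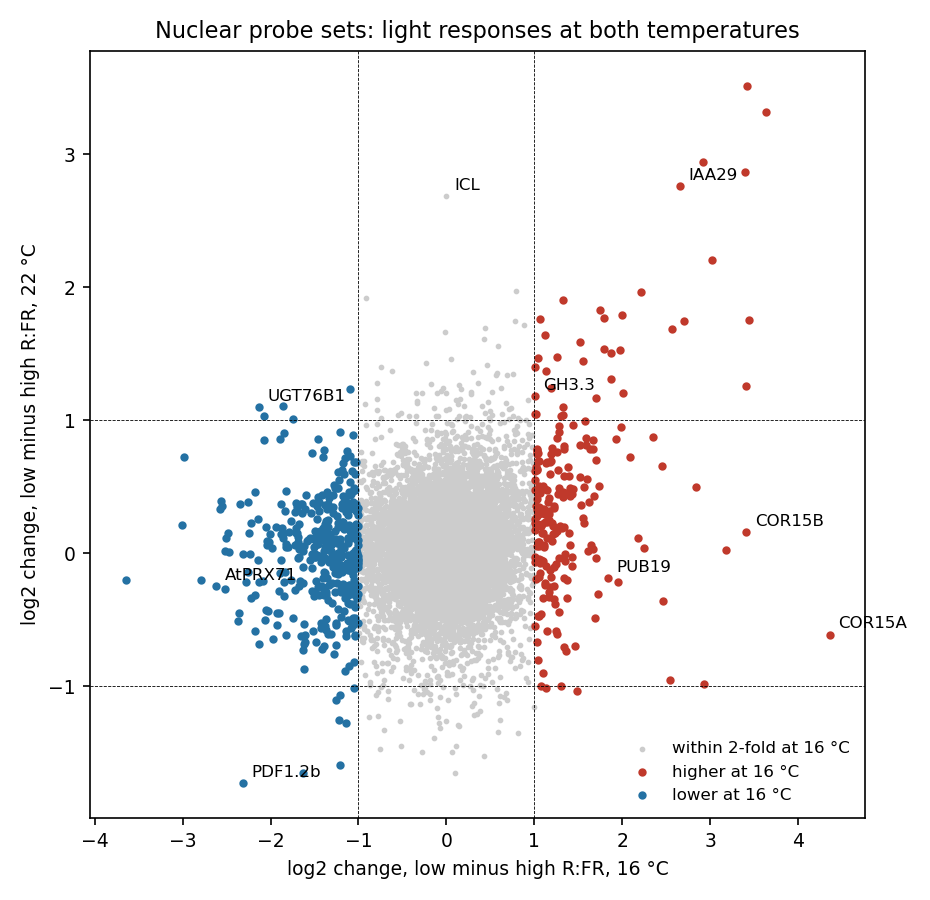
Log2 change in low R:FR at 16 °C (horizontal) and at 22 °C (vertical), 1 point per nuclear probe set, with dashed lines at 2-fold and colours by the 2-fold rule at 16 °C. IAA29 and GH3.3 lie at upper right, COR15A and COR15B far to the right near or below 0 at 22 °C, and most of the 394 lower probe sets spread along the horizontal around 0 at 22 °C.

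The chloroplast genome encodes core subunits of the photosystems, the cytochrome b6f complex, ATP synthase and the NDH complex, ribosomal proteins and a bacterial type RNA polymerase. Of the 104 measured probe sets in the organelle range 68 had 1 chloroplast gene. Of these, 19 were higher in low R:FR at 16 °C (27.9%) and 0 lower, with a median log2 change of 0.39, against 1.65% of nuclear probe sets higher. At 22 °C, 18 of the 68 were higher (26.5%), with a median of 0.42. The high R:FR array of 16 °C was the lowest of the 4 arrays for 53 of them.

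The changes were found among the dimmer chloroplast probe sets. The 33 with a geometric mean signal at 16 °C of at least 500 had a median of 0.08 and 0 reached 2-fold, while of the other 35, 19 did and the median was 1.70. Transcripts of this genome largely lack poly(A) tails, and how they were primed and labelled was not tested. The gene ycf3, a photosystem I assembly factor, read 33 and 472.6 at 16 °C and 94.6 and 218.3 at 22 °C (log2 3.84 at 16 °C). The NDH subunit genes ndhE, from 17.4 to 229.5, and ndhG, from 24.2 to 297.9, had log2 changes of 3.72 and 3.62. Within the same complex ndhI stayed at 2339.5 and 2239.1, and 4 of 9 measured NDH genes were higher. Of the cytochrome b6f genes 3 of 6 were higher, with petN from 19.6 to 186.8 (log2 3.25) and petD from 17.0 to 154.3 (log2 3.18), while petA and petB had log2 changes of 0.02 and 0.01. Beside these stood rps14, a small ribosomal subunit gene, from 21.2 to 224.4 (log2 3.40), psbT of photosystem II, from 20.3 to 162.1 (log2 3.00), and rpoB of the RNA polymerase, from 23.2 to 183.3 (log2 2.98). The lowest changes were those of rbcL, the large subunit of Rubisco, at -0.38 from 71.3 and 54.9, rpl14 at -0.25, rpoA at -0.17 and psbE at -0.09. At 22 °C rbcL read 135.1 and 318.7, so the gene differed in sign between temperatures.

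**Figure D5:**
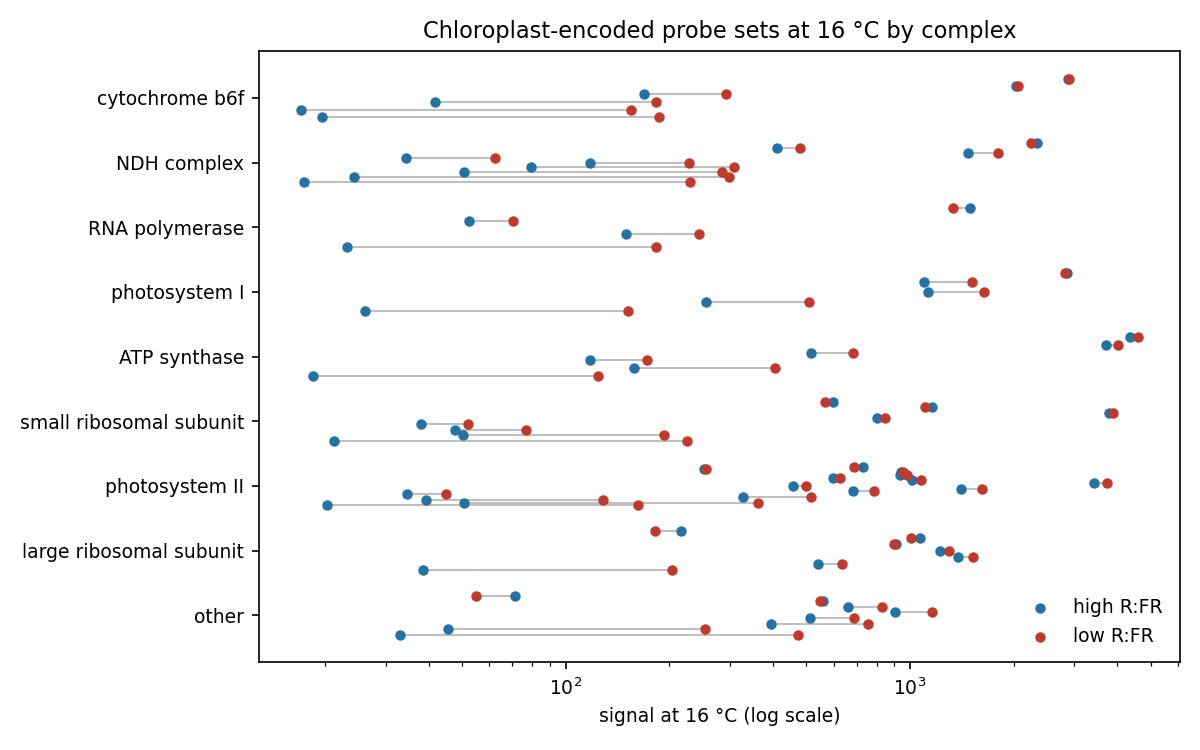
Signals of the 68 measured chloroplast-encoded probe sets at 16 °C on a log axis, grouped by complex, with blue for high and red for low R:FR and a grey line joining both signals of a gene. Genes with signals above about 500 moved little, and the long lines belong to genes with high R:FR signals below 100 such as ycf3, ndhE and petN.

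The other 36 probe sets of that identifier range were mixed. They included 7 whose 1 gene lies on chromosome 2 and 5 with names of mitochondrial genes, and 24 had no gene or several. Over the whole range of 104, 27 were higher (26.0%) and 2 lower (1.92%) at 16 °C. The mitochondrial gene names nad1 and cox1 belonged to probe sets outside the range, which therefore counted as nuclear, at log2 0.60 and 0.82, neither past 2-fold.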

How the data were processed

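Gene expression was measured on Affymetrix arrays, with 1 array for each of 4 conditions. The authors deposited 1 intensity value (signal) for each probe set on a linear scale. Per the submitters' processing notes it was computed with MAS5, with version and target not given in the sources used here. From these values, signals below 14.5 (the 30th percentile of all signals) were set to 14.5, log2 was taken, and control probe sets were left out. Probe sets with a mean log2 over 4 arrays below that of 23.2 (the 40th percentile) were left out too. The floor makes changes of dim genes smaller. The local SD is 1.4826 times the median absolute deviation of the log2 changes of the 500 nuclear probe sets nearest in mean signal. Absent bacterial controls (27 probe sets) read at most 12.1 on the arrays of 16 °C.

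Gene names came from a platform table updated through RefSeq's gene table: a single gene was paired with 13513 probe sets (13436 found in RefSeq), several genes with 503, and 8730 were unnamed here. Listed genes were matched by locus, and 25 loci whose listed symbol was not among their names were left out. Of the 737 loci in 33 lists 94 were measured, from 106 with a named probe set. For a gene with several probe sets the brightest was used. No genome build is given, so no coordinates are printed. Promoter motifs, which had been planned, and sequences were not analysed here.

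Named genes were the 15 highest and 15 lowest among measured nuclear probe sets with 1 named gene. To be ranked, these had to reach a signal of 37.8 on an array of 16 °C. List members past 2-fold, or else the 2 nearest the list median, were added. All measured members of the cold, shade, auxin response, light-harvesting and reference lists were added too. So were the 8 highest and 4 lowest named chloroplast genes. The members and lists were chosen with earlier results of these data known. Other named genes were chosen after their values were seen. Alternatives were 3 scalings, floors at the 10th and 50th percentiles, a pseudocount, 3 filters, a 3-fold rule and the mean over probe sets of a gene. The counting was tested on simulated data with planted changes well past 2-fold and less spread than most probe sets here. That test does not measure false calls in these data. Computations used Python 3.11.15, numpy 2.4.6, pandas 2.3.3 and scipy 1.17.1.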

Additional observations from a re-analysis of the deposited data

Results flagged for a closer look

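UGT76B1, the salicylate glucosyltransferase gene, was the named gene whose light changes reached 2-fold at both temperatures in opposite directions. Its log2 change in low R:FR was -2.13 at 16 °C, from signals of 63.5 and 7.5, and 1.1 at 22 °C, from signals of 36.6 and 78.4. The low R:FR signal at 16 °C lay below the floor of 14.5, so the change there is a bound, and it was -0.75 with the floor at 37.8. The difference between temperatures was not tested, since each condition had 1 array.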

How the results depend on the processing

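The counts of nuclear probe sets depended on the fold limit and on how dim signals were handled. Against 224 higher and 394 lower, a floor raised to 37.8, the 50th percentile, gave 97 and 205, a pseudocount in place of the floor 100 and 256, and a 3-fold rule 51 and 109. The count of 2 lower probe sets in the organelle range was 0 with the raised floor or the 3-fold rule, and 1 with the pseudocount, with a filter on the arrays of 16 °C alone or with a filter on the higher of both signals. The 19 higher chloroplast genes were 18 with the 3-fold rule and 19 under the other alternatives. Of 60 alternative counts of nuclear, organelle-range and chloroplast probe sets, 49 lay within 1.5 times the reported ones. The share of higher among called nuclear probe sets was 36.2%, and 28.1% to 39.5% under the alternatives. Of 130 alternative list medians 123 moved by less than the local SD, and none changed sign. Of 77 single genes past 2-fold, 33 no longer passed with the raised floor, 23 with the pseudocount and 3 with quantile normalization, and none changed direction in any of the 6 scaling, floor and pseudocount alternatives. With the raised floor every probe set passes the filter by construction, and all changes of genes below it shrink.

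No paired analysis was possible because each condition had 1 array. With no replicates, the spread between plants is unknown, and the floor limits every change with a signal near 14.5.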
